A study of Rattus norvegicus with 287 samples.

Results

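The pancreas of obese Zucker Diabetic Fatty (ZDF) control rats was described against 6 other tissues of the same arm: liver, skeletal muscle, kidney, intestine, brain and blood. The pancreas libraries were chosen by their labels (model, treatment, tissue and animal number), and numbered 5 of the 287 libraries of the series, set against 30 libraries of the other tissues, 5 of each. All were from male rats of the 7-week control arm, in which the protocol gives anaesthesia with isoflurane and a sham stimulus without energy in place of the ultrasound aimed at the porta hepatis. Obese ZDF rats lack a working leptin receptor and become diabetic. The labels used here give no genotype or age. The tissue labelled brain is named hypothalamus in the design text. Replicates are different rats, and the numbers on the labels were taken to mark the same rat in every tissue.

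The pancreas consists mostly of acinar cells, which make digestive enzymes as secreted proteins, fold them in a very large endoplasmic reticulum and store many of them as inactive zymogens in granules. The enzymes leave through ducts whose cells secrete bicarbonate. The islets of Langerhans, scattered among the acini, release insulin from beta cells, glucagon from alpha cells, somatostatin from delta cells and pancreatic polypeptide from PP cells into the blood. In a bulk library, fewer cells of a type and less RNA per cell cannot be told apart.

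Levels across tissues are given as scaled CPM, that is, the count over the library size in units of 1e+06, after correction with TMM factors, which balance the bulk of genes between libraries. They compare a gene across libraries and not 1 gene with another, because transcript length was not taken into account. The factors were 0.429 to 0.542 in pancreas and 0.0795 to 0.169 in blood, and 0.882 to 2.90 in the other 5 tissues, so that scaled CPM of 1 library need not sum to the same total. Total counts ran from 9338963 to 11712076 in pancreas and up to 43088790 in the other libraries. Pancreas was sequenced from total RNA and the 6 other tissues from polyadenylated RNA, so that tissue and library kit cannot be told apart in these contrasts. RNAs of Rfam families, histone genes, Rn7sl1, Rpph1 and Rmrp took 15.4% to 21.6% of the counts of pancreas and 0.00597% to 0.0415% of those of the 6 tissues, and were left out. Adipose tissue of 4 rats with the same numbers, made with the total RNA kit, served as the comparison within a kit. The animal number of blood 5 and intestine 5 was in doubt from earlier work on these data, and intestine 1 held the ileal gene Fabp6 above the other intestine libraries. The counts without them stand beside the counts they touch.

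The labelled tissue was checked with its marker. Cpa1, which encodes the pancreatic carboxypeptidase A1, stood at 127997, 162990, 104453, 123887 and 101723 scaled CPM in the pancreas of rats 1 to 5. Its mean was 4.23 ± 2.09 (SD, n = 5) in muscle and at most 0.0833 scaled CPM in each of the other 5 tissues. All 5 pancreas libraries lay above all 30 others, and the difference nearest to 0 was that from muscle, a log2 fold change of 14.95 ± 0.53 (standard error, SE; edgeR's quasi-likelihood test, highest adjusted p over the 6 tissues 5.26e-20). The markers of the other tissues did not all behave alike. Against the mean of 6 tissues, 2 of 6 liver markers tested were higher in pancreas and 1 lower, 0 of 5 muscle markers were higher and 4 lower, and 3 of 6 kidney markers were higher and 0 lower. Of the intestinal markers 1 of 7 was higher and 0 lower, of the red cell markers 0 of 6 were higher and 6 lower, and of the brain markers 1 of 7 was higher and 2 lower. The higher ones were Serpina1 by 3.49, Fgb by 2.13, Umod by 4.33, Slc12a1 by 2.15, Nphs1 by 5.86, Vil1 by 4.87 and Snap25 by 4.96 on the log2 scale, and their part in the results was not tested. By library totals 1 liver, 2 kidney, 1 intestinal and 1 brain marker were higher. With TMM factors and against the tissue they mark, all 6 liver, 5 muscle and 6 kidney markers tested were lower in pancreas. So were all 7 intestinal and all 6 red cell markers. Of the 7 brain markers, 6 were lower than in brain and 0 higher. The muscle creatine kinase Ckm, the renal phosphate transporter Slc34a1 and the intestinal fatty acid binding protein Fabp2 had 0 counts in all 5 pancreas libraries. Albumin (Alb) stood at 1.18 to 12.4 scaled CPM in pancreas, against a mean of 128664 in liver, and the haemoglobin gene Hbb at 40.8 to 113 scaled CPM.

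Pancreas RNA was concentrated in a few genes. In each pancreas library 6 or 7 genes held 50% of the kept counts, against 2 in every blood library and 27 to 874 in the libraries of the other 5 tissues. Of the kept counts of pancreas, 21 listed digestive enzyme genes took 57.5%, 65.9%, 63.1%, 64.7% and 50.4% in rats 1 to 5. The gene LOC103689940, listed in RefSeq with the synonym Amy2, lies on chromosome 2, as do Amy2a3 and Amy1. It took a further 18.8%, 8.70%, 10.3%, 9.26% and 26.7%. By share of kept counts, rats 1 and 5 were the highest for LOC103689940 and the lowest for the sum of the other enzymes. Shares of a library sum to a fixed total, so that a larger share of any gene lowers the rest. With granule proteins, acinar transcription factors and Reg genes, the acinar share was 75.9% to 79.5%, a narrower range than that of either part.

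**Figure D1:**
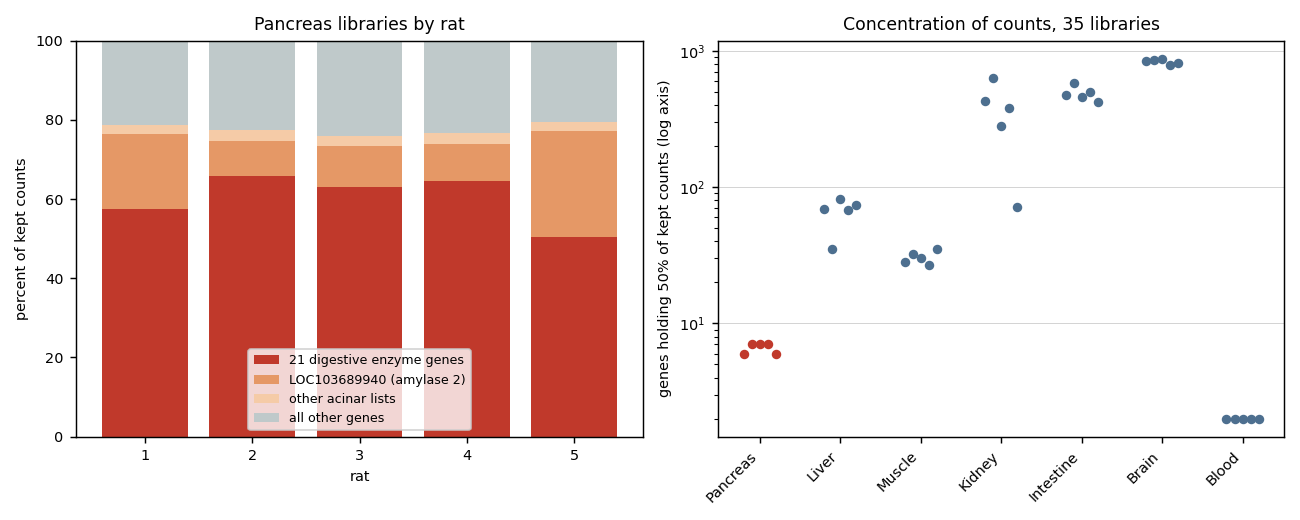
Left, the percent of kept counts (RNAs left out not counted) in the 5 pancreas libraries, stacked by gene group and by rat. Right, the number of genes that together hold 50% of the kept counts in each of 35 libraries, on a log axis, with pancreas in red: pancreas needs 6 or 7 genes, blood 2 and brain 788 to 874.

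Across 16429 genes tested, 4864 were higher and 4534 lower in pancreas than the mean of the 6 tissues (29.6% and 27.6% of genes tested; edgeR's quasi-likelihood test, adjusted p under 0.05, rat as a block), with a median log2 difference over all genes of -0.15. A stricter call asked for at least a 4-fold difference and an adjusted p under 0.05 from each of the 6 tissues. By it 312 genes were higher in pancreas than in each tissue (1.90% of genes tested) and 38 lower (0.231%). Without blood 5 and intestine 5 these counts were 326 and 38, and without intestine 1 they were 320 and 39. Of the 312, 298 had every pancreas library above all 30 others. The tissue with the smallest difference was intestine for 76 of them, brain for 63, blood for 55, kidney for 48, liver for 37 and muscle for 33. Against single tissues, 25.3% of genes tested were higher in pancreas than in kidney, 26.1% than in intestine, 26.7% than in brain, 29.4% than in liver, 32.2% than in muscle and 37.5% than in blood. The shares lower in pancreas were 26.6% for blood, 29.7% for muscle, 30.3% for liver, 31.8% for intestine, 34.4% for kidney and 38.6% for brain.

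Digestive enzymes stood furthest apart. Of 24 listed, 21 were tested, all 21 were higher in pancreas than the mean of the 6 tissues and 20 were higher than in each. The median log2 difference from the mean of 6 tissues was 19.62, or 18.94 with each tissue held at no less than 3 counts over its 5 libraries, since 9 members had a tissue without a count. Among the proteases, the trypsinogens Prss1, Prss2 and Prss3 cleave and activate the other zymogens after their own activation in the gut. Prss1 stood at 189873, 178109, 168653, 175089 and 171509 scaled CPM in rats 1 to 5, a narrow range between rats. Its highest mean elsewhere was 0.452 in blood, and the difference nearest to 0 was 18.77 ± 0.84 (log2 ± SE) from blood. Prss3 had 3 counts in 30 libraries of other tissues, a ratio of levels of 6812691 with a 95% Poisson interval of 2331178 to 33035385, which covers counting error only. Prss2 also had 3 counts there, a ratio of 2800077 (958135 to 13577838).

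The trypsinogens, with Prss3b and Try5, are close paralogs, and estimated counts may divide their shared reads differently, so that the level of any 1 of them is less certain than their sum. Chymotrypsinogen B (Ctrb1) stood at 139882, 193806, 111010, 150796 and 103228 scaled CPM in pancreas. Blood held 85.9 to 418 scaled CPM of it, where each of the other 5 tissues was at or below 0.790 in every library. Its difference from blood was 9.54 ± 0.60, still called, and that from the mean of 6 tissues 18.95 ± 0.36. Try10, a trypsin-like paralog, held 60 counts over the 5 pancreas libraries and 0 over the 30 others, a level at least 736-fold higher taking 3 counts over the 30 libraries as the floor.

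The elastases Cela2a (78428 ± 8455, SD, n = 5) and Cela3b (74022 ± 21921) were no higher than 0.147 scaled CPM as a mean in any other tissue. Cela1 was also read in kidney and intestine. It stood at 42705 to 68406 scaled CPM in pancreas and at means of 24.3 in kidney and 7.44 in intestine, and its difference from kidney was 11.14 ± 0.51. The carboxypeptidase Cpb1 (122037 ± 17917) was above all 30 other libraries in every rat.

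Lipases split dietary fat, and their groups did not overlap. Pancreatic lipase (Pnlip) stood at 97580, 106495, 136570, 126002 and 95190 scaled CPM in rats 1 to 5, against a mean of 1.01 in brain, its highest elsewhere. Carboxyl ester lipase (Cel) had a mean of 125619 ± 8504, and the lipase-related Pnliprp1 65076 ± 8407 with 9 counts over the 30 other libraries. Colipase (Clps), the cofactor that holds lipase to the fat droplet, had a mean of 11902 ± 877 and 8 counts elsewhere. The smallest differences of Cel, Pnliprp1 and Clps from a tissue were 17.54 ± 0.77, 19.95 ± 0.63 and 17.50 ± 0.60, in each case from blood.

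Amylases, which digest starch, included the 1 listed enzyme of 21 not called above each tissue, Amy1a. LOC103689940 stood at 434300, 192695, 191072, 180356 and 623030 scaled CPM in rats 1 to 5. Rats 1 and 5 were high and the other 3 lay close together. It was also read in intestine, at 1.90 to 20.3 scaled CPM, and the difference from intestine was 15.23 ± 0.87. Amy1a, the salivary-type amylase that liver also makes, stood at 202, 75.6, 92.7, 64.5 and 279 in pancreas and 288 to 524 in liver. Every liver library lay above every pancreas library, and the log2 difference from liver was -1.72 ± 0.45 (adjusted p = 0.00188). Rat 5 and then rat 1 were highest for both genes. These amylase genes are near copies, and reads shared between them may be divided by the estimate.

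Promoters of some enzyme and hormone genes with start sites in the RefSeq annotation are shown. Cela1, Ctrb1, Prss2 and Cel are the 4 of 17 listed enzyme promoters that hold the pair of boxes marked below. The enzymes printed are therefore not a typical sample of the 17. Cpa1 is printed as the marker. The 250 bases before the start are given 5′ to 3′ on the gene's strand, from the GRCr8 assembly, which is not the build the counts were made on. Capitals mark CANNTG followed by TTTCCC after a gap of 3 to 20 bases, searched on both strands (GGGAAA before CANNTG on the other), where N is any base, and TATAAA on the gene's strand. CANNTG is the site of helix-loop-helix factors such as Ptf1a, whose complex also contacts a TTTCCC box.
Cela1, chr7:133665062-133665311, minus strand: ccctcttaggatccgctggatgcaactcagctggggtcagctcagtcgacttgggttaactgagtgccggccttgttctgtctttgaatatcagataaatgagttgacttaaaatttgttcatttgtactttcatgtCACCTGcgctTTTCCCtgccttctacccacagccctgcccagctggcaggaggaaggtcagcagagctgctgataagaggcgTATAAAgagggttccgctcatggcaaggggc
Ctrb1, chr19:56566979-56567228, minus strand: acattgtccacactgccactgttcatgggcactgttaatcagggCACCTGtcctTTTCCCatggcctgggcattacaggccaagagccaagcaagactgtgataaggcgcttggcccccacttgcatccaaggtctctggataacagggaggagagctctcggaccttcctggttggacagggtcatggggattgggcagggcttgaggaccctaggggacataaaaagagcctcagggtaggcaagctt
Prss2, chr4:71244714-71244963, plus strand: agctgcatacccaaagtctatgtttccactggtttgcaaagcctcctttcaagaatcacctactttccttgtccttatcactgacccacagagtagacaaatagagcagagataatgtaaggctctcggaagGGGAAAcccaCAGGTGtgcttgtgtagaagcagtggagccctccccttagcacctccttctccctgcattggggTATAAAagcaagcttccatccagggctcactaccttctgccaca
Cel, chr3:32289020-32289269, minus strand: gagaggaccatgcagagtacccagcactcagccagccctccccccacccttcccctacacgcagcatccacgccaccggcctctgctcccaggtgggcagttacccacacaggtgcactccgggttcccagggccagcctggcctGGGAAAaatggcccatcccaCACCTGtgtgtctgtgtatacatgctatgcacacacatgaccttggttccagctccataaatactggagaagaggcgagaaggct
Cpa1, chr4:60224551-60224800, plus strand: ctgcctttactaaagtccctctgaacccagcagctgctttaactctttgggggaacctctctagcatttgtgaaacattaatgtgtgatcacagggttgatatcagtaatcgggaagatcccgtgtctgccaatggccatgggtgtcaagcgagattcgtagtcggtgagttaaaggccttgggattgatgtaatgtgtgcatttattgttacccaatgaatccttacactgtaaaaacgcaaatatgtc
Ins1, chr1:261185869-261186118, plus strand: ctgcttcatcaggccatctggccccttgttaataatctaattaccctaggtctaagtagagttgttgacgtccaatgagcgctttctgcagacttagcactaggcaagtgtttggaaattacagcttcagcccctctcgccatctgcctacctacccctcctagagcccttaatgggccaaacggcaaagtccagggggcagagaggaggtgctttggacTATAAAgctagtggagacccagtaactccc
Ins2, chr1:207273806-207274055, minus strand: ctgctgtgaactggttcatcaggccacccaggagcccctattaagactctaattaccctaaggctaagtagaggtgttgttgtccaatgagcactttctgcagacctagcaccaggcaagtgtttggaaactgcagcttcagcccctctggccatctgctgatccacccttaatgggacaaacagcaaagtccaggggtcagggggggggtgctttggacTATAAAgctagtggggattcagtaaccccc

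The pair was found in 4 of 17 listed enzyme genes with a promoter entry (23.5%) and in 620 of 33469 promoters (1.85%). Among the 233 promoters of genes higher than in each tissue it was in 4 (1.72%), which are the same 4 enzyme genes. Among 9 islet hormone promoters it was in 0. Counted from the gene start, its boxes began at -113 and -103 in Cela1, -206 and -196 in Ctrb1, -118 and -108 in Prss2 and -105 and -85 in Cel. Cpa1, the marker, held no pair in this window. TATAAA was found in 9 of the 17 enzyme promoters (52.9%), in 4 of 9 islet hormone promoters (44.4%) and in 8.06% of all promoters. In Ins1 and Ins2 it began at -30. A match of letters is a description and not a bound site.

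Granule proteins and secretory receptors of the acinar cell followed the enzymes. Of 18 listed, 14 were tested, 12 were higher than the mean of 6 tissues, 1 was lower and 1 did not pass, with 10 higher than in each and a median log2 difference of 13.53, or 12.47 with each tissue held at no less than 3 counts. The 1 that did not pass was Vamp8. Gp2, the main protein of the granule membrane, stood at 18800, 22458, 14157, 18382 and 17663 scaled CPM, with a mean of 4.28 in kidney. Syncollin (Sycn, 12389 ± 2209) and Cuzd1 (3487 ± 1031) had 15 and 3 counts over the 30 other libraries. Zg16, a lectin of zymogen granules that goblet cells of the gut also make, stood at 10125 to 13434 in pancreas and at a mean of 537 in intestine, a difference of 4.54 ± 0.38. The trypsin inhibitor Spink1 stood at 870 to 1392 in pancreas and at a mean of 11.9 in liver, a difference of 6.50 ± 0.71.

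Receptors that drive enzyme release differed in reach. The cholecystokinin receptor Cckar stood at 137, 146, 163, 137 and 172 scaled CPM and at most at a mean of 0.282, in brain, with a difference of 9.28 ± 0.59. The muscarinic receptor Chrm3 stood at 25.4 to 36.4 in pancreas, and its difference from brain, with a mean of 24.2, was 0.36 ± 0.31 (adjusted p = 0.311). Rab3d, a small GTPase of secretory granules, was higher than in each tissue by at least 3.32 ± 0.24. Clic1, a chloride channel protein found in many cells, was lower than the mean of 6 tissues by -1.36 ± 0.18.

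All 10 listed acinar transcription factors were higher than the mean of 6 tissues, and 4 were higher than in each, with a median log2 difference of 7.09, or 6.09 with each tissue held at no less than 3 counts. Ptf1a, the factor that commits cells to the acinar fate, stood at 117, 150, 103, 109 and 111 scaled CPM in rats 1 to 5 and had 3 counts in the 30 other libraries, all in brain. Rbpjl, its partner in the acinar complex, stood at 507, 979, 487, 743 and 371, and the smallest difference was 8.35 ± 0.37 from brain. Bhlha15 (Mist1), which organises the secretory apparatus, was at 172 to 369, with a smallest difference of 6.95 ± 0.38 from intestine. Xbp1, the factor that expands the endoplasmic reticulum, was expressed in every tissue and was 2.93 ± 0.22 above intestine, the nearest. The other 6 did not reach the stricter call. Nr5a2 was at 63.3 to 123 in pancreas and 33.7 to 47.9 in liver, 1.07 ± 0.36 apart. Gata4 had a mean of 33.0 in pancreas and 59.6 in intestine, and was lower in pancreas by -0.83 ± 0.28 (adjusted p = 0.0120). Foxa2 had a mean of 20.3 in pancreas and 22.5 in liver, and the 2 groups overlapped (adjusted p = 0.831).

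**Figure D2:**
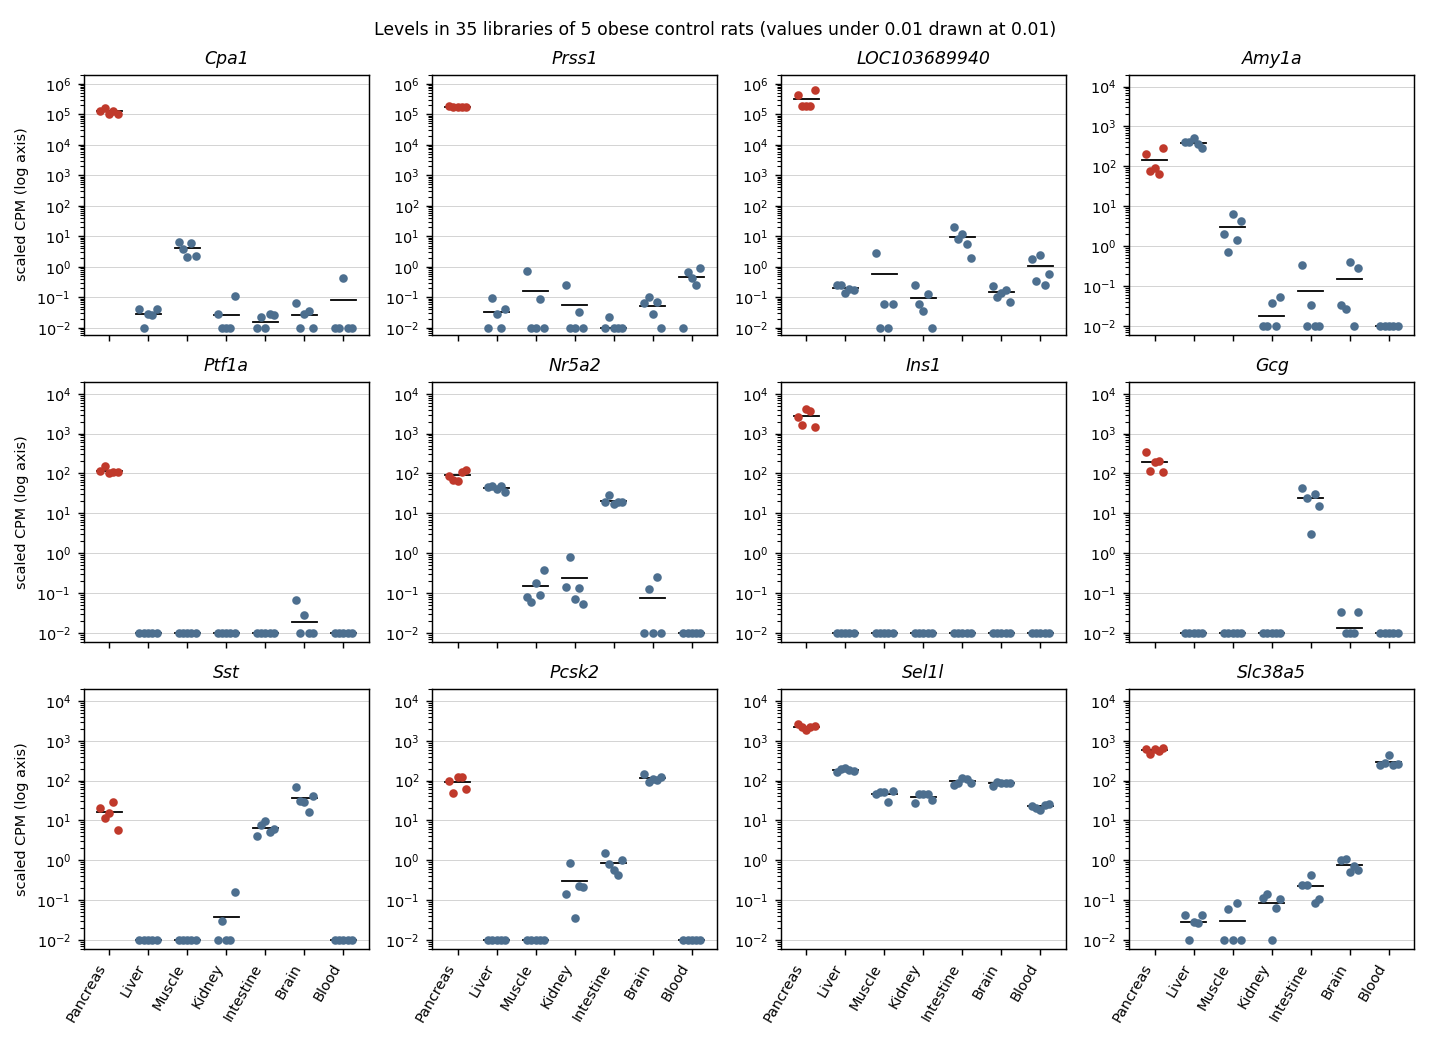
Scaled CPM on a log axis of 12 genes in 35 libraries, 5 rats in each of 7 tissues, each point 1 library and each bar the mean. Pancreas (red) lies above every other library for Cpa1, Prss1, LOC103689940, Ptf1a, Nr5a2, Ins1, Gcg, Sel1l and Slc38a5, below liver for Amy1a, and overlaps brain for Sst and Pcsk2.

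Islet hormones were measured in all 5 pancreas libraries. Of 9 listed, 7 were tested, all 7 were higher than the mean of 6 tissues and 5 were higher than in each (median log2 difference 12.87, or 10.89 with each tissue held at no less than 3 counts). Pyy and Ucn3 were too low to be tested. The insulin genes Ins1 and Ins2 are both active in rats. Ins1 stood at 2657, 1604, 4108, 3740 and 1486 scaled CPM in rats 1 to 5 and had 0 counts in all 30 other libraries, so that its level was at least 717022-fold higher with 3 counts over the 30 libraries as the floor. Ins2 stood at 2055, 1207, 2100, 2532 and 1123, with 2 counts elsewhere. The 2 insulin genes are close copies, and reads may be divided between them. Islet amyloid polypeptide (Iapp), released with insulin, stood at 125, 71.5, 257, 180 and 69.9.

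Glucagon and pancreatic polypeptide were also higher in pancreas than in each tissue, and somatostatin and ghrelin were not. Glucagon (Gcg) stood at 335, 117, 197, 203 and 107 scaled CPM in pancreas and 3.11 to 44.2 in intestine, where the same gene gives GLP-1, a difference of 3.20 ± 0.43. Pancreatic polypeptide (Ppy) stood at 2.65 to 17.6, with 1 count elsewhere. Somatostatin (Sst) stood at 5.90 to 29.2 in pancreas and 16.6 to 68.3 in brain, and was lower in pancreas by -1.12 ± 0.46 (adjusted p = 0.0387). Ghrelin (Ghrl) was at 0 to 2.04 scaled CPM in pancreas and at a mean of 8.43 in intestine.

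Proteins of the hormone granule were, for the most part, shared with brain. All 12 tested were higher than the mean of 6 tissues, but 2 were higher than in each, and 6 were lower in pancreas than in brain. Pcsk1, a convertase that cuts proinsulin, stood at 70.5, 41.2, 143, 95.0 and 33.0 scaled CPM, 3.83 ± 0.40 above brain. The zinc transporter Slc30a8, which loads insulin granules, stood at 4.42 to 12.1 and was 6.79 ± 0.65 above intestine. The convertase Pcsk2 stood at 48.6 to 127 in pancreas and 94.6 to 149 in brain, a difference of -0.33 ± 0.39 (adjusted p = 0.486). Chromogranin B (Chgb) stood at 6.78 to 87.0 in pancreas and had a log2 difference of -2.73 ± 0.39 from brain.

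Genes of glucose sensing were low and none of the 8 tested was higher than in each tissue, although 7 were higher than the mean of 6 tissues. The glucose transporter Slc2a2 had a mean of 29.1 scaled CPM in pancreas and 402 in liver, a difference of -3.86 ± 0.31. The channel subunit Kcnj11 had a mean of 3.97 in pancreas and 313 in muscle. The incretin receptors Glp1r (1.77 to 11.2) and Gipr (1.53 to 8.73) were higher than the mean of 6 tissues by 6.71 ± 0.75 and 5.14 ± 0.34, or 5.23 and 5.18 with each tissue held at no less than 3 counts. Of 11 islet transcription factors tested, 8 were higher than the mean of 6 tissues, 1 was lower and 2 did not pass. Nkx6-1, a beta cell factor, was the 1 higher than in each (0.789 to 5.68, 3.30 ± 0.83 above kidney). Pdx1, needed for the whole pancreas and kept in beta cells, stood at 2.04 to 5.28 in pancreas and 0.0551 to 17.9 in intestine, groups that overlapped. Mafa had a mean of 2.39 in pancreas and 51.3 in muscle.

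Reg genes encode small secreted lectin-like proteins of acinar and gut cells that rise with injury and inflammation. Of 5 tested, 4 were higher than the mean of 6 tissues and 2 were higher than in each. Reg1a stood at 1190, 1505, 3468, 3579 and 1310 scaled CPM in rats 1 to 5, Reg3a at 114, 146, 556, 633 and 140, and Reg3b at 72.9, 93.4, 459, 614 and 95.2. Rats 3 and 4 were above the other 3 for all 3 genes. Reg3b overlapped intestine (35.6 to 168 scaled CPM, adjusted p = 0.0902), Reg3g stood at 0 to 4.19 in pancreas against a mean of 46.5 in intestine, and Reg4 had no count in pancreas.

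**Figure D3:**
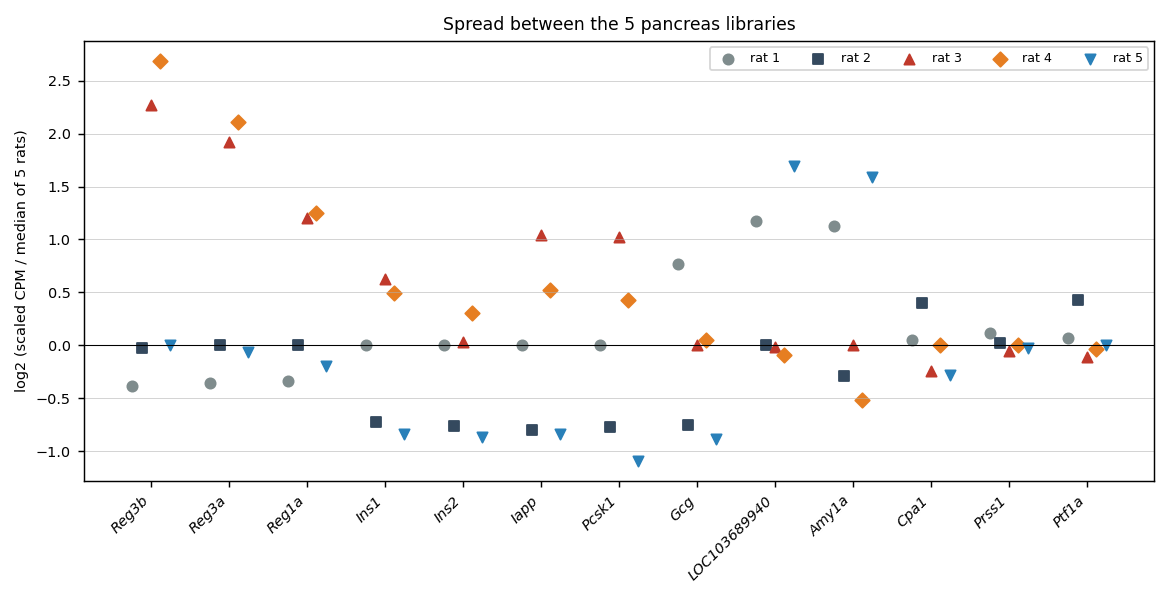
The log2 ratio of each pancreas library's scaled CPM to the median of the 5 rats, for 13 genes, with a symbol for each rat. Rats 3 and 4 are highest for Reg genes and Ins1, rats 1 and 5 for LOC103689940 and Amy1a, and the points of Prss1 lie close together.

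Rats 3 and 4 also had the highest levels of Ins1 and Ins2 and Iapp, and the highest shares of islet hormones, 0.363% and 0.344% of kept counts against 0.120% to 0.226% in the other 3. These are values of 5 libraries, described without a test. Whether the share of islets in each sampled piece differed was not tested.

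Duct genes were measured, and most did not reach the call above each tissue. Of 16 tested, 12 were higher than the mean of 6 tissues, 2 lower and 2 did not pass, with 2 higher than in each. Over all genes tested, 1.90% were higher than in each. The secretin receptor Sctr stood at 24.2, 24.4, 22.5, 22.7 and 34.2 scaled CPM, 3.77 ± 0.50 above kidney, and the mucin Muc1 at 74.1 to 127, 2.38 ± 0.40 above kidney. The chloride channel Cftr had a mean of 26.9 in pancreas and 44.5 in intestine. Carbonic anhydrase 2 (Car2) stood at 1.32 to 2.84 and was lower in pancreas than in each tissue (highest adjusted p over the 6 tissues 0.0127), by less than 4-fold from muscle.

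Markers of other cells in the tissue stood at modest levels. Of 15 stellate and fibroblast markers 8 were higher and 1 lower than the mean of 6 tissues, with a median of 0.64, of which the collagen Col3a1 stood at 139 to 271 scaled CPM. Scaled by library totals the median was -0.66. Of 9 endothelial markers 5 were higher and 2 lower (median 0.86, or -0.43 by library totals). Of 10 macrophage markers 2 were higher and 3 lower (median 0.16, or -1.16 by library totals). Of 14 lymphocyte and lymph node markers 0 were higher and 3 lower by edgeR and 11 lower by limma. The T cell gene Cd3e had 2 counts over the 5 pancreas libraries, and Cd3d, Ccr7 and Cxcl13 had none. Of 10 adipocyte markers 4 were higher and 1 lower (median 1.47, or -0.07 by library totals). The adipokine Adipoq stood at 1.77 to 4.13 scaled CPM in pancreas against a mean of 35.3 in muscle, and all 10 markers were lower in pancreas than in adipose tissue.

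For the secretory pathway, the counts depended on the scaling, and those by TMM come first. For entry into the endoplasmic reticulum and signal peptide cleavage, 20 of 25 genes tested were higher than the mean of 6 tissues and 2 lower, with a median log2 difference of 1.52 against -0.15 over all genes. The signal peptidase subunit Sec11c stood at 176, 187, 149, 143 and 152 scaled CPM and was the 1 higher than in each, 2.07 ± 0.22 above brain. The translocon channel subunit Sec61a1 was higher than each tissue without reaching 4-fold, with the smallest difference of 0.94 ± 0.16 from liver. Sec61g and Srp14 were the 2 lower, by -0.60 ± 0.17 and -1.06 ± 0.13. Sec61g had a mean of 29.5 in pancreas and 1113 in blood.

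Of 24 chaperones and disulfide isomerases tested, 19 were higher and 1 lower (median 1.22, or -0.07 by library totals). Against liver alone 6 were higher and 6 lower, and against each other tissue more were higher than lower. Ero1b, the oxidase that recharges disulfide isomerases and is known from pancreas, stood at 565, 388, 315, 467 and 507 scaled CPM and was 3.77 ± 0.29 above liver, the nearest. The general chaperone Hspa5 (BiP) was higher than the mean of 6 tissues by 1.19 ± 0.15 and its groups overlapped liver, with means of 558 in pancreas and 723 in liver (adjusted p = 0.202). Calr, a calcium-binding chaperone, was the 1 lower, by -0.84 ± 0.15.

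Of 15 genes of the unfolded protein response and of degradation from the endoplasmic reticulum, 14 were higher and 1 lower (median 1.72). Against liver alone 6 were higher and 3 lower, and against each other tissue 11 or more were higher. Sel1l, the scaffold of the degradation ligase, stood at 2668, 2220, 1868, 2190 and 2350 scaled CPM and at means of 22.7 to 186 in the 6 tissues, 3.61 ± 0.20 above liver. The stress kinase Eif2ak3 (PERK) was 3.32 ± 0.25 above intestine, and the mannosidase Edem3 3.05 ± 0.37 above intestine. Ddit3 (CHOP), a factor of stress-induced cell death, was the 1 lower, at 1.84 to 8.40 scaled CPM, by -1.97 ± 0.30.

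Transport beyond the endoplasmic reticulum followed. Of 16 genes tested, 12 were higher and 1 lower (median 1.23, or -0.03 by library totals), with 4 higher than in each. Tmed11, a cargo receptor of the p24 family, stood at 92.4, 150, 73.5, 53.0 and 50.1 scaled CPM and had 0 counts in the 30 other libraries, at least 20905-fold higher with 3 counts over these libraries as the floor. Its relatives Tmed6 and Tmed3 were 6.10 ± 0.28 above kidney and 4.14 ± 0.29 above blood, and the granule GTPase Rab27b was 2.91 ± 0.59 above blood. Sar1b, a GTPase of coat vesicles, was lower by -1.51 ± 0.18.

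Amino acid supply was described by transporters and enzymes. Of 20 tested, 18 were higher than the mean of 6 tissues and 2 lower (median 3.04), but 0 were 4-fold above each tissue. The glutamine transporter Slc38a5 stood at 620, 458, 603, 563 and 652 scaled CPM in pancreas and 240 to 440 in blood, 1.03 ± 0.26 apart, with means of at most 0.777 in the other 5 tissues. Gatm, the first enzyme of creatine synthesis, stood at 653 to 804 in pancreas and 522 to 1099 in kidney, groups that overlapped. Slc43a1 and Shmt2 were the 2 lower, by -4.42 ± 0.66 and -1.36 ± 0.25. Of 19 cytosolic aminoacyl-tRNA synthetases 13 were higher and 1 lower (median 0.46, or -0.81 by library totals). Of 22 ribosomal protein genes 20 were higher and 0 lower (median 1.10, or -0.18 by library totals). Against blood alone 2 of them were higher and 10 lower, and against each other tissue more were higher than lower.

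Scaling by library totals moved the median over all genes to -1.45. Under it the medians of chaperones, transport, synthetases and ribosomal proteins were below 0 and those of translocation (0.25), the unfolded protein response (0.46) and amino acid supply (1.72) above it. Each stood above the median of all genes under that scaling. By library totals 10 translocation genes were higher and 7 lower, 8 chaperones higher and 8 lower, 7 genes of the unfolded protein response higher and 4 lower, and 8 transport genes higher and 8 lower. Of the amino acid genes 12 were higher and 2 lower, of the synthetases 2 were higher and 13 lower, and of the ribosomal protein genes 0 were higher and 8 lower.

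**Figure D4:**
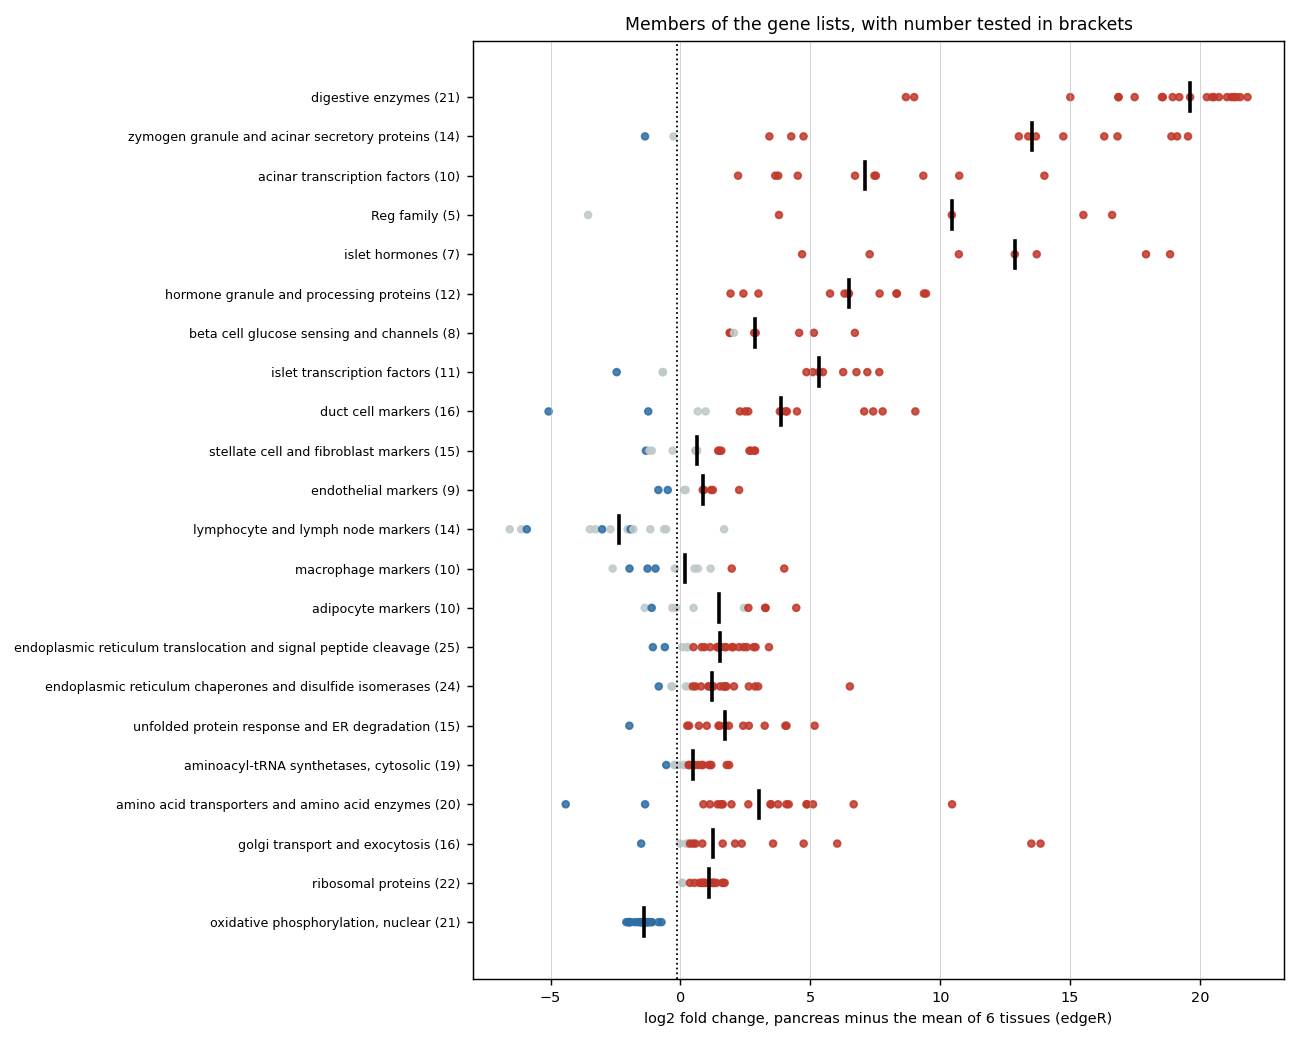
Log2 fold change of each tested member of 22 gene lists, pancreas minus the mean of 6 tissues, with the list's median as a black bar and the median of all genes as a dotted line. Red points were higher and blue lower at an adjusted p under 0.05, and grey did not pass: the 21 digestive enzymes lie furthest to the right, and all 21 oxidative phosphorylation genes are to the left. Values of genes with no count in a tissue depend on the prior count.

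All 21 nuclear genes of oxidative phosphorylation tested were lower than the mean of 6 tissues (median -1.40, and -2.66 by library totals), with values from -0.73 ± 0.18 for Cox7c to -2.09 ± 0.22 for Ndufb8. All 21 were lower than in liver, muscle, kidney and intestine, and 14 were lower than in brain. Against blood 9 were higher in pancreas and 5 lower. Muscle held the highest level of Ndufb8, and 0 of the 21 were 4-fold below each tissue. Most of the 38 genes lower than in each tissue were not called again in other rats, as given below. Of the 38, 7 met the rule for naming, which asked for at least 5 scaled CPM in every other tissue and no overlap of libraries. Of these 7, 4 encode enzymes of glycolysis or lactate metabolism, and genes of that kind were not tested as a list. Gapdh, a glycolytic enzyme, stood at 44.5, 38.2, 55.2, 47.7 and 51.0 scaled CPM in pancreas and at 338 or more in every other library, -3.52 ± 0.32 from blood, the nearest. Copies of Gapdh in the genome make its estimate uncertain. Lactate dehydrogenase (Ldha) stood at 27.9, 35.1, 26.0, 23.5 and 36.3 in pancreas and 78.5 or more elsewhere, -2.23 ± 0.28 from brain. The glycolytic enzymes Pgk1 and Gpi were -2.11 ± 0.21 from blood and -2.26 ± 0.28 from liver. The others were the kinase Pak1, the ganglioside synthase St3gal5 and Smdt1, a part of the mitochondrial calcium uniporter, all at 0.221 to 2.36 scaled CPM in pancreas.

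Some genes were called above 5 tissues and missed the call against 1 other. Genes 4-fold above 5 tissues but not the last numbered 234 for brain (1.42% of genes tested), 110 for intestine (0.670%), 83 for liver (0.505%), 58 for kidney (0.353%), 38 for muscle (0.231%) and 27 for blood (0.164%). Listed genes among them were hormone granule and islet genes for brain (Pcsk2, Ptprn2, Scg2, Scg3, Scg5, Neurod1, Nkx2-2, Pax6 and Gipr), and Cftr, Itpr3, Kdelr3, Pdx1, Reg3b and Ghrl for intestine. For liver they were Amy1a, Foxa2, Nr5a2, Onecut1, Serpina1 and the stress genes Dnajc3, Edem1, Edem2 and Ern1. For kidney they were Gatm, Glp1r, Nphs1, Slc12a1, Spp1 and Umod, for muscle Lpl and Mafa, and for blood Asns, Slc38a5, Slc7a5 and Ssr4. Of all genes so counted, 139 for brain, 31 for intestine and 37 for liver were lower in pancreas than in that tissue. So were 26 for kidney, 12 for muscle and 8 for blood.

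Within the total RNA kit, pancreas was set against adipose tissue of rats 1, 2, 4 and 5. These adipose libraries were not alike. Adipocyte markers took 3.00%, 2.92%, 0.973% and 0.733% of their kept counts, in that order of rats. The oxidative phosphorylation genes took 0.399%, 0.425%, 0.902% and 0.660%. The part of this unevenness in the comparison with adipose tissue was not tested. Of the 312 genes higher than in each of the 6 tissues, 286 were tested there and 160 were also at least 4-fold higher than adipose tissue (8.97% of the 12013 genes tested there were). Those 160 include 51 of the 55 that belong to a list. At any size, 26.3% of the genes tested were higher and 24.3% lower than in adipose tissue. All 20 digestive enzymes tested were higher, with Cpa1 19.97 ± 1.28 above it, and so were 23 of 25 translocation genes and all 22 ribosomal protein genes. The other 126 of the 286 had a median of 12.5 scaled CPM in pancreas and a median gene span of 91753 bases in RefSeq for the 77 with a span, and 1 belongs to a list. The 160 had 119 scaled CPM and 17442 bases for 133 with a span, and all genes tested 24673.5 bases. The 26 genes not tested against adipose tissue had a median of 3.43 scaled CPM, and 3 belong to a list. The part of the kit in the 126 was not tested. Of the 21 oxidative phosphorylation genes, 5 were lower and 1 higher than adipose tissue, and Ndufb8 was -1.47 ± 0.38 from it. Of the 38 genes lower than in each tissue, 29 were tested and 22 were 4-fold lower than adipose tissue (11.9% of genes tested were).

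The comparison was repeated in other rats. Among obese ZDF rats given ultrasound (other animals in all 7 tissues), 295 genes were higher than in each tissue (1.81% of 16271 tested). Of these 262 were among the 312, 88.8% of the ultrasound list and 84.0% of the first. Against the mean of 6 tissues 30.3% of genes were higher there and 30.2% lower. For genes lower than in each, 17 were shared, 44.7% of 38 and 43.6% of 39. The pancreas library of ultrasound rat 8 was shallow, with 2380545 counts against 7746207 or more in the other ultrasound rats. It held 4713 genes with 10 counts, against 8855 or more, and an acinar share of 56.3%, against 75.0% or more. The repeat was not run without it. In controls of another rat model labelled DIO-stz (4 rats, females and males), 242 genes were higher than in each (1.45% of 16640), 166 of them shared, 68.6% of that list and 53.2% of the 312. One DIO-stz pancreas library had 85.8% of its counts in the RNAs left out. Against the mean of 6 tissues 25.6% of genes were higher there and 21.9% lower. Genes lower than in each numbered 35 there, of which 9 were among the 38. All 21 digestive enzymes were higher, and all 10 acinar transcription factors. Of the 8 glucose sensing genes 1 was higher, against 7 in ZDF controls, and of the hormone granule genes 8 of 11 were, against 12 of 12. These differences between cohorts were not tested. The smallest of the 6 differences of Pcsk1 was -1.40 there (highest adjusted p over the 6 tissues 0.319), against 3.83 in ZDF controls.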

How the data were processed

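RNA was sequenced from 35 libraries, 7 tissues with 5 rats each. The authors deposited expected counts per gene, rounded to whole numbers, and the submitters' processing notes name STAR 2.5.3a, RSEM and the build Rnor_6.0. Pancreas and adipose tissue were made with a stranded total RNA kit and the others with a stranded mRNA kit, per the labels' protocols. Of 32623 genes, 4076 (Rfam families, histones, Rn7sl1, Rpph1 and Rmrp) were dropped before library sizes and 16429 passed a filter for a minimum count of 10 by tissue. They were fitted with edgeR 4.0.16 in R 4.3.3 (TMM, robust quasi-likelihood) on tissue with rat as a block, p-values adjusted by Benjamini-Hochberg over all genes. p-values measure the spread between rats. In the contrast with the mean of 6 tissues, edgeR's F statistic was negative or so near 0 that no SE is given for 1215 genes, with p of 0.995 or more, and 0 of them were called. limma 3.58.1, DESeq2 1.42.0 and the other alternatives are in the closing section. Figures used matplotlib 3.10.9.

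Numbers on the labels were taken to mark the same rat. Deviations of same-numbered libraries from their tissue means correlated with those of pancreas by a mean of 0.0120 to 0.0655 per tissue, and 0 of 5 rats were over 0.1 in any tissue.

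The genes named are the 15 higher than in each tissue with the largest smallest difference, the 15 with the highest level, up to 10 lower than in each, and members of the lists, of which some are not reported here. The lists hold 395 entries, of which 366 had a row and 361 were tested, and the rest were not analysed here. Members and lists were chosen with earlier results of these data known. On simulated counts, 100 of 100 raised and 96 of 100 lowered genes were called against the mean of 6 tissues. These counts hold only for the size of change that was simulated, which was larger than the 4-fold threshold. Only genes above a set level were changed, and each gene had the same mean in all other tissues. The other 16229 genes were simulated as unchanged, and 11 of them were called. In the real data 4864 genes were higher and 4534 lower, and recovery against such a background was not tested. Intervals and floors of 3 counts cover counting error only. Total counts per library were 9338963 to 43088790. Promoters are RefSeq, GRCr8.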

Additional observations from a re-analysis of the deposited data

Results flagged for a closer look

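Among 145 sets of 5 pancreas values, 6 had a library far from the other 4, where chance gives about 1 in 20. These were Ptf1a in rat 2 (150 scaled CPM), Ghrl in rat 2 (2.04), Glp1r in rat 4 (11.2), Sctr in rat 5 (34.2), Cox5a in rat 2 (33.9) and Cdh5 in rat 2 (7.64). On the log2(CPM + 1) scale the incretin receptors differed in sign between the 2 control cohorts. In DIO-stz rats the mean difference of pancreas from the 6 tissues was -0.31 for Glp1r and -0.47 for Gipr. Every obese ZDF rat was above 0 and every DIO-stz rat below. Levels in DIO-stz pancreas were near the floor, 0 to 0.209 CPM of kept counts for Glp1r and 0 to 0.418 for Gipr. Neither gene is among those listed below that changed sign in edgeR's fit. The difference between cohorts was not tested. The RNAs left out of the fit took a median of 18.1% of pancreas counts.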

How the results depend on the processing

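With library totals in place of TMM, an alternative chosen after seeing the data, 1923 genes were higher and 8990 lower than the mean of 6 tissues, 118 higher and 174 lower than in each, and the counts higher and lower were 2391 and 8696 against liver, 2613 and 8163 against muscle, 844 and 12600 against kidney, 792 and 13026 against intestine, 890 and 13120 against brain and 10993 and 1645 against blood. Scaling by library totals moved the median of all genes by itself, as given above. limma, also added after seeing the data, called 7296 lower than the mean of 6 tissues, and the cause was not tested. Genes lower than in each numbered 24 with protein-coding genes alone (fewer genes tested) and 12 with only the 2 tissues of each contrast in the fit (fewer samples). Against adipose tissue 3161 genes were higher and 2925 lower, 1078 and 1435 of them by 4-fold. Without the replicate block (the rat number), 4861 were higher and 4553 lower than the mean, and 306 and 37 than in each, so the pairing changed no count by over 1.5 times. Leaving out each rat gave 4554 to 4662 higher and 4076 to 4252 lower than the mean, 289 to 324 higher and 37 to 46 lower than in each, and against single tissues 4395 to 4588 and 4598 to 4796 (liver), 4907 to 5112 and 4496 to 4775 (muscle), 3760 to 4086 and 5142 to 5361 (kidney), 3963 to 3985 and 4729 to 4899 (intestine), 4064 to 4156 and 5957 to 6082 (brain), 5744 to 5796 and 4122 to 4206 (blood). Over 138 genes, 2319 of 2384 gene and setting pairs kept direction and side of the threshold, 34 lost the call, 10 gained it and 21 changed sign. Those were, in DIO-stz controls, Vamp8 0.30, Reg4 1.61, Pcsk1 -1.40, Cpe -0.35, Kcnj11 -0.016, Slc34a1 5.07, Fabp2 3.95 and Snap25 -0.71, and against adipose tissue Vamp8 1.00, Sec61g 1.44, Calr 0.59, Rars 0.18, Shmt2 0.88, Sar1b 0.26, Alb -2.12, Col1a1 -3.33, Col3a1 -2.70, Cdh5 -3.23, Cd163 -1.76, Adipoq -8.30 and Lpl -2.40. The value of Pcsk1 is the smallest of its 6 differences. Of those in DIO-stz controls, only Slc34a1 and Fabp2 had an adjusted p under 0.05 by edgeR. Against adipose tissue Rars, Shmt2, Sar1b and Cd163 did not. The cause was not tested. Total counts in pancreas, 9338963 to 11712076, limit the precision of low genes.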

Other observations

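Amylase and insulin genes differed between pancreas cohorts, given here as CPM of kept counts and without a test. LOC103689940 ran from 86973 to 267356 in obese ZDF controls and from 156828 to 240049 in obese ZDF rats given ultrasound. In DIO-stz controls it ran from 704 to 3732, and in DIO-stz rats given ultrasound from 156149 to 204851. Amy1a followed the same order, at 33.2 to 120 in obese ZDF controls and 0.175 to 3.55 in DIO-stz controls. Ins1 had a median of 1150 in obese ZDF controls and 68.1 in DIO-stz controls, with 488 in DIO-stz rats given ultrasound. One of the 4 DIO-stz control libraries had 85.8% of its counts in the RNAs left out.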
